A study of Mus musculus with 6 samples.

Results

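Actins and the contractile proteins of smooth muscle were followed on arrays of mouse intestinal epithelial cells, to see whether a rise of Acta1, the skeletal muscle alpha-actin, after loss of caspase-8 was shared by its relatives. The members were all probe sets that the platform annotation pairs with 1 of 10 genes (Acta1, Acta2, Actc1, Actg2, Actb, Actg1, Tagln, Myl9, Myh11 and Des), with the manufacturer's control probe sets left out. They numbered 15 of 45037 probe sets, and the 10 genes stand among 18193 that had a probe set of their own. Acta1 was chosen because it was higher in the caspase-8 deficient cells of these arrays. The other 9 genes were chosen as its family and as smooth muscle genes, with results of the same arrays known. All values of that comparison are therefore given as a description of the members. Where a member is said to pass or not to pass the fit, this sets it beside the share of all probe sets and is no test of the member.

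The arrays came from C57BL/6 mice, with each biological replicate of the titles read as 1 animal. The 3 controls carried the floxed casp8 gene and were villinCre negative. The 3 deficient animals carried the floxed gene and were villinCre positive, so that Cre recombinase, driven by the villin promoter of gut epithelial cells, can delete it there. Muscle, vessel and connective tissue cells that remain in such a preparation do not use that promoter and would keep the gene. The labels do not give the animals' age, the part of the gut, or the exons removed.

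Actin is the protein of thin filaments. In vertebrates it is encoded by a small family of nearly identical genes: the cytoplasmic actins Actb and Actg1 of all cells, Acta1 and Actc1 of skeletal and cardiac muscle, and Acta2 and Actg2 of vascular and visceral smooth muscle. In enterocytes the cytoplasmic actins form the cores of the microvilli and the contractile belt at the cell junctions. Many muscle actin genes share the CArG box, a short promoter element bound by serum response factor (SRF), whose partners of the MRTF family are held back by free actin monomers.

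RefSeq promoter windows (mouse build GRCm38.p6) were found for 6 of the 10 genes: Acta1, Acta2, Actc1, Actg1, Myl9 and Des. They were searched over the 250 bases before the start for the CArG box, taken as CC, 6 middle bases that are all A or T, and GG. The pattern reads alike on both strands, so both were searched at once. Such a match stood in 4 of the 6 windows (Acta1, Actc1, Actg1 and Myl9) and in 482 of 32851 promoter windows of the table, or 1.47%. With 5 or 6 of the middle bases A or T the share over the table was 8.59%, and 5 of the 6 member windows held a match, Acta2 with 2. Des held none, which says only that these letters are not in its window. The sequences are shown because Acta1, Actc1, Actg1 and Myl9, which share the element, differed in the values described further on. Capitals mark the matches, and each line reads 5′ to 3′.
Acta1, chr8:123894776-123895025, minus strand: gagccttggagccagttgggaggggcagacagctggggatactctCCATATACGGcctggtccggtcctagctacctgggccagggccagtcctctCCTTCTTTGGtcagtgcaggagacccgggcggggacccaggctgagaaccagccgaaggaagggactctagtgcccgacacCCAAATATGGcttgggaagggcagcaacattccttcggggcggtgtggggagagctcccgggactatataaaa
Acta2, chr19:34255383-34255472, minus strand: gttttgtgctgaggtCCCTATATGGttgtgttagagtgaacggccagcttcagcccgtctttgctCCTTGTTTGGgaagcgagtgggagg
Actc1, chr2:114052898-114053065, minus strand: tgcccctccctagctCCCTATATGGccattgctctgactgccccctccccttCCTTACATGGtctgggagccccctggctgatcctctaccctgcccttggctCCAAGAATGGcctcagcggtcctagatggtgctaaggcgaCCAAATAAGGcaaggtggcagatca
Actg1, chr11:120348561-120348600, minus strand: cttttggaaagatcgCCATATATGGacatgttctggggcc
Myl9, chr2:156775288-156775389, plus strand: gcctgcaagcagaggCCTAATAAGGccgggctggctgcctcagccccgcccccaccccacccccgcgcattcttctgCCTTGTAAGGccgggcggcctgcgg
The match with all middle bases A or T began at base −73 from the start in Acta1, at −47 in Actc1, at −90 in Actg1 and at −161 in Myl9.

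A few facts of the arrays bear on the members. The 14 epithelial identity genes averaged 11.9 to 12.1 on the log2 scale on every array. In 5 of the 14 the deficient arrays all lay above the controls, against 11.5% of all genes. In 1 all lay below, against 11.2%. Casp8 itself read 9.74 to 10.5 in the controls and 9.27 to 10.4 in the deficient animals, by a probe set that may lie outside the deleted part and so checks no genotype. Deficient replicate 1 stood apart, with 416 probe sets that exceeded all the other arrays by more than 1 log2 unit. The remaining arrays had 1 to 88 such probe sets. The 14 endothelial genes averaged 6.46 on deficient replicate 1, against 4.27 to 4.63 on the other arrays. For Gapdh, the manufacturer's control probe sets at the 3′ end exceeded those at the 5′ end, a gap that widens with RNA degradation, by 0.68 and 0.93 in control replicates 1 and 2 and by 0.21 to 0.29 elsewhere. The probe sets of the poly-A spikes, control RNAs added to the samples, averaged 8.97, 8.63 and 8.19 in the controls. They averaged 7.96, 7.84 and 7.28 in the deficient animals, so the groups did not overlap, with a difference of −0.90. Handling of the samples may thus have differed between the groups, and its part in the member values was not tested. Since deficient replicate 1 stood apart, members are given with and without deficient replicate 1.

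Acta1 was the 1 member that passed the fit over all probe sets. It stood 4.25-fold higher in the deficient cells, while the cytoplasmic actins and cardiac actin lay within 0.10 of the controls on the log2 scale. Acta2 came next among the actins, at 0.87, and did not pass. Of the 15 member probe sets, 1 was called higher and 0 lower by limma at an adjusted p of 0.05, where 0.318% of all probe sets were called in either direction, 0.107% higher and 0.211% lower. Since Acta1 was chosen from this comparison, nothing is read from that count.

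The single Acta1 probe set gave log2 RMA values of 6.44, 6.65 and 6.90 for control replicates 1, 2 and 3. The deficient replicates gave 8.50, 8.93 and 8.82. The groups did not overlap, and the lowest deficient array lay 1.60 above the highest control. The means were 6.66 ± 0.23 and 8.75 ± 0.22 (SD, n = 3), a log2 difference of 2.09 with a standard error (SE) of 0.17. By size this was the 10th highest difference of the 45037 probe sets. Deficient replicate 1, the array that stood apart, had the lowest Acta1 of its group, and without it the difference was 2.21. Leaving out each of the 6 arrays in turn gave 1.98 to 2.21. The call was lost with the Gapdh 3′ minus 5′ difference as a covariate, at a log2 difference of 1.91. It was also lost without control replicates 1 and 2, at 1.85, a setting that leaves 1 control and in which 1 of all probe sets passed, that of the stomach gene Gkn2. The actins are so alike that probes may bind more than 1 of them, and Acta1 was measured by 1 probe set, so its identity rests on the annotation. How far other actins enter its value was not tested.

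Actc1, the cardiac actin and the closest muscle relative of Acta1, was dim and overlapped between the groups. It read 3.89, 4.004 and 4.31 in the control animals, against 4.004, 4.29 and 4.20 in the deficient ones. The highest array was a control, and the log2 difference was 0.095 (SE 0.15), or 0.17 without deficient replicate 1. Its values lay below the median of all probe sets on each array, between the 34.5th and the 41.3rd percentile. RMA pulls such dim signals towards a floor, so a change of a dim gene is understated, and the table holds no detection calls.

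**Figure D1:**
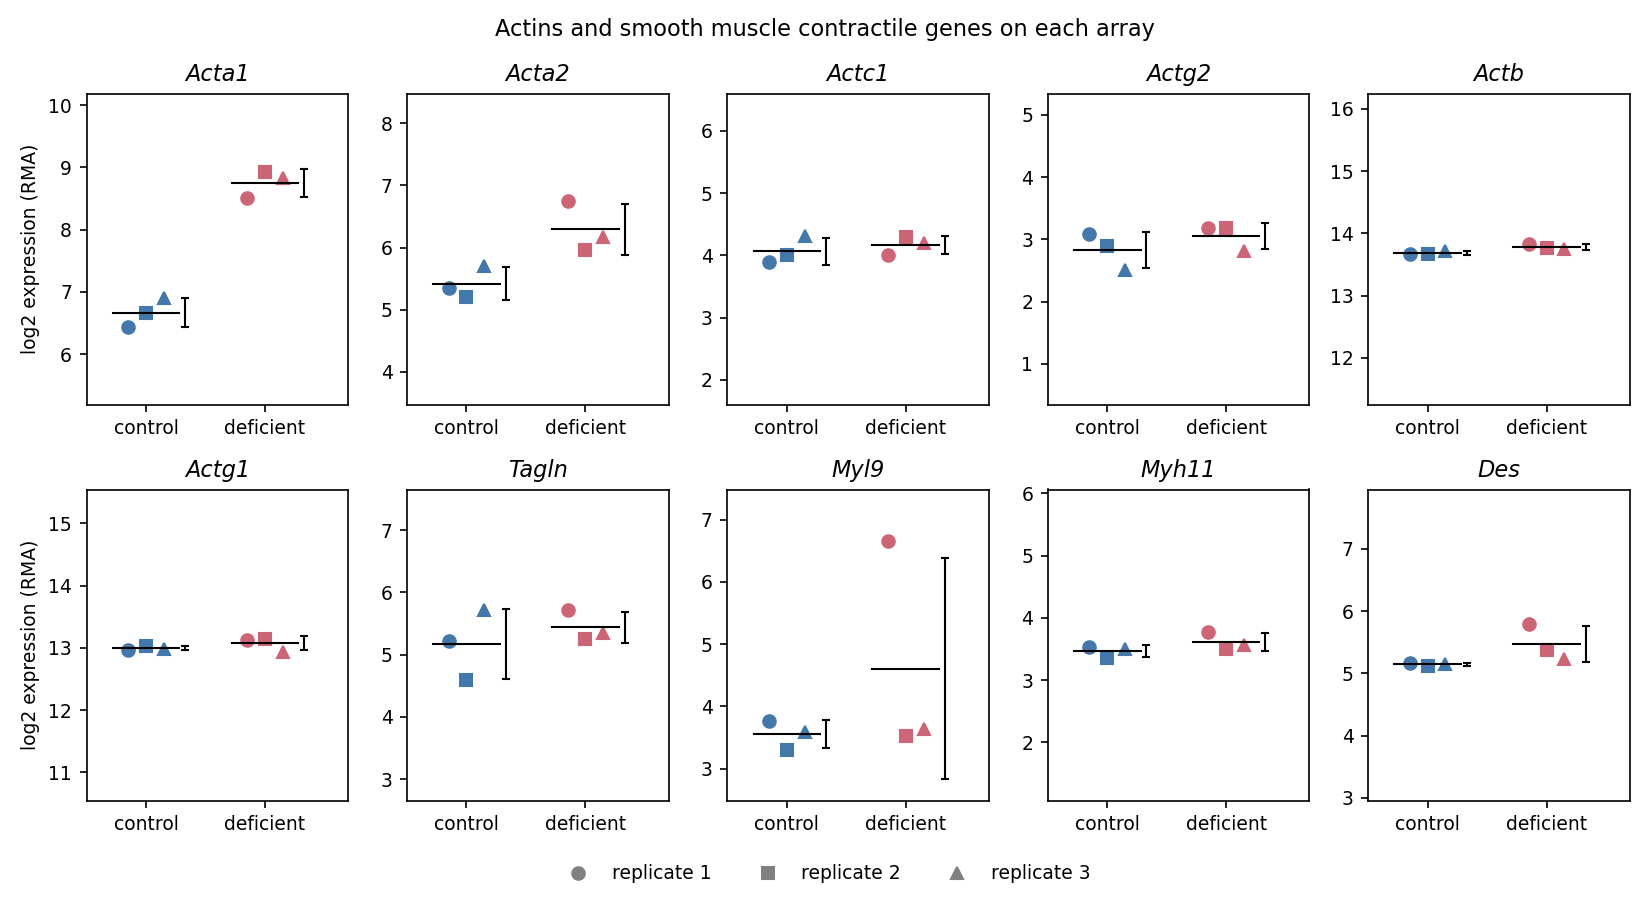
Log2 RMA expression (y axis) of the brightest probe set of each of the 10 genes in control and deficient arrays (x axis), with a symbol for each replicate, a line at the group mean and a bar of ± 1 SD beside it (n = 3); every panel spans the same log2 range. The Acta1 groups stand apart by 1.60, Myl9 has a single high array, deficient replicate 1 at 6.66, and the cytoplasmic actins Actb and Actg1 are nearly level.

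Acta2, the vascular smooth muscle alpha-actin that also marks myofibroblasts and pericytes, differed most after Acta1 among the actins. Its brightest probe set read 5.35, 5.20 and 5.71 in the control animals, against 6.75, 5.96 and 6.16 in the deficient ones. The groups did not overlap, by a gap of 0.26, and deficient replicate 1 was the highest. The log2 difference of 0.87 (SE 0.22) did not pass. Without deficient replicate 1 it was 0.65 (SE 0.18) and did not pass either. The probe set is of a type that may bind related transcripts. The other Acta2 probe sets were dim, at 2.52 to 3.09 on every array, with differences of 0.19 and 0.11, and their groups overlapped.

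Actg2, the gamma-actin of visceral smooth muscle such as the gut wall, was among the dimmest members. It read 3.08, 2.90 and 2.51 in the control animals, against 3.18, 3.18 and 2.82 in the deficient ones, and lay between the 9.90th and the 21.6th percentile of its array. The groups overlapped, with a log2 difference of 0.23 (SE 0.18). This gene of the intestinal muscle layer was thus among the dim signals of both groups.

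The cytoplasmic actins, the bulk of actin in epithelial cells, had the smallest differences of the actins, together with Actc1. The brighter Actb probe set read 13.66, 13.67 and 13.72 in the control animals, against 13.83, 13.77 and 13.74 in the deficient ones. Its groups did not overlap, but the gap was 0.021 and the difference 0.097 (SE 0.10), which did not pass. The second Actb probe set stood at −0.026 (SE 0.12) with overlapping groups. Actg1 read 12.97, 13.03 and 12.99 in the control animals, against 13.13, 13.15 and 12.94 in the deficient ones, a difference of 0.079 (SE 0.11), and the lowest array was a deficient one. The brighter Actb probe set lay at or above the 99.9th percentile on every array, where an array's signal can flatten, so that a change may be understated.

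Actb was also read by the manufacturer's control probe sets, which lie at 3 places along the transcript and are no members. The difference was 0.085 at the 3′ end, 0.25 in the middle and 0.35 at the 5′ end. The 5′ probe set read 12.93, 12.87 and 13.26 in the control animals, against 13.35, 13.36 and 13.39 in the deficient ones. Control replicates 1 and 2, which had the largest Gapdh 3′ minus 5′ differences, were the lowest. The 3′ minus 5′ difference of Actb was 0.75, 0.84 and 0.43 in the controls and 0.37 to 0.44 in the deficient animals. The size of the Actb difference thus moved with the place read. The 3′ minus 5′ difference of Actb is made from the same probe sets, so it is no separate evidence on this. The part of RNA integrity in the difference was not tested.

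**Figure D2:**
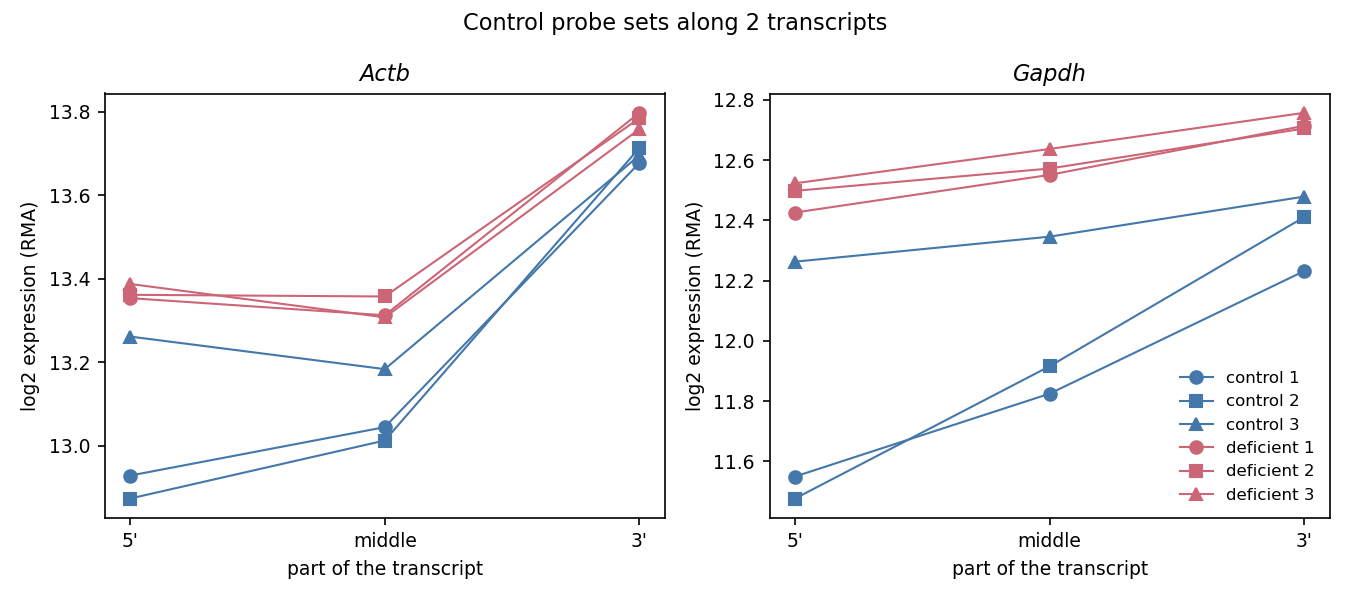
Log2 RMA expression (y axis) of the manufacturer's control probe sets at the 5′ end, the middle and the 3′ end (x axis) of the Actb and Gapdh transcripts, with 1 line for each array. Control replicates 1 and 2 lie lowest at the 5′ end of both transcripts, and for Actb the arrays come together at the 3′ end, where the difference between the groups was 0.085.

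The smooth muscle contractile genes had 6 probe sets, of which 0 passed in limma, where 0.318% of all probe sets did. Of the 6, 0 had an unadjusted p under 0.05, against 14.1% of all probe sets, so the count is near that background. Tagln encodes transgelin, an actin-binding protein of smooth muscle. It read 5.21, 4.60 and 5.71 in the control animals, against 5.71, 5.25 and 5.35 in the deficient ones, and the groups overlapped, with a difference of 0.26 (SE 0.27). Leaving out single arrays moved that value between −0.025 and 0.53.

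Myl9, the regulatory light chain of smooth muscle myosin, had the second largest difference of the members, carried by 1 array. It read 3.76, 3.31 and 3.59 in the control animals, against 6.66, 3.53 and 3.63 in the deficient ones. Deficient replicate 1 was the one high array, and the other deficient arrays lay among the controls. The log2 difference of 1.05 (SE 0.74) fell to 0.026 (SE 0.16) without that array, and its place by size went from 200 to 20867 of 45037.

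Myh11, the smooth muscle myosin heavy chain, overlapped between the groups by both probe sets. The brighter read 3.54, 3.35 and 3.50 in the control animals, against 3.77, 3.50 and 3.56 in the deficient ones, a difference of 0.15 (SE 0.12). The second stood at 0.20 (SE 0.14). Both lay at or below the 30.9th percentile of their arrays.

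Des encodes desmin, the intermediate filament of muscle cells. Its brighter probe set read 5.16, 5.12 and 5.15 in the control animals, against 5.79, 5.38 and 5.23 in the deficient ones. The groups did not overlap, by 0.066, and deficient replicate 1 was the highest. The difference of 0.32 (SE 0.16) became 0.16 (SE 0.12) without that array. The dimmer probe set stood at −0.082 (SE 0.12) with overlapping groups.

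**Figure D3:**
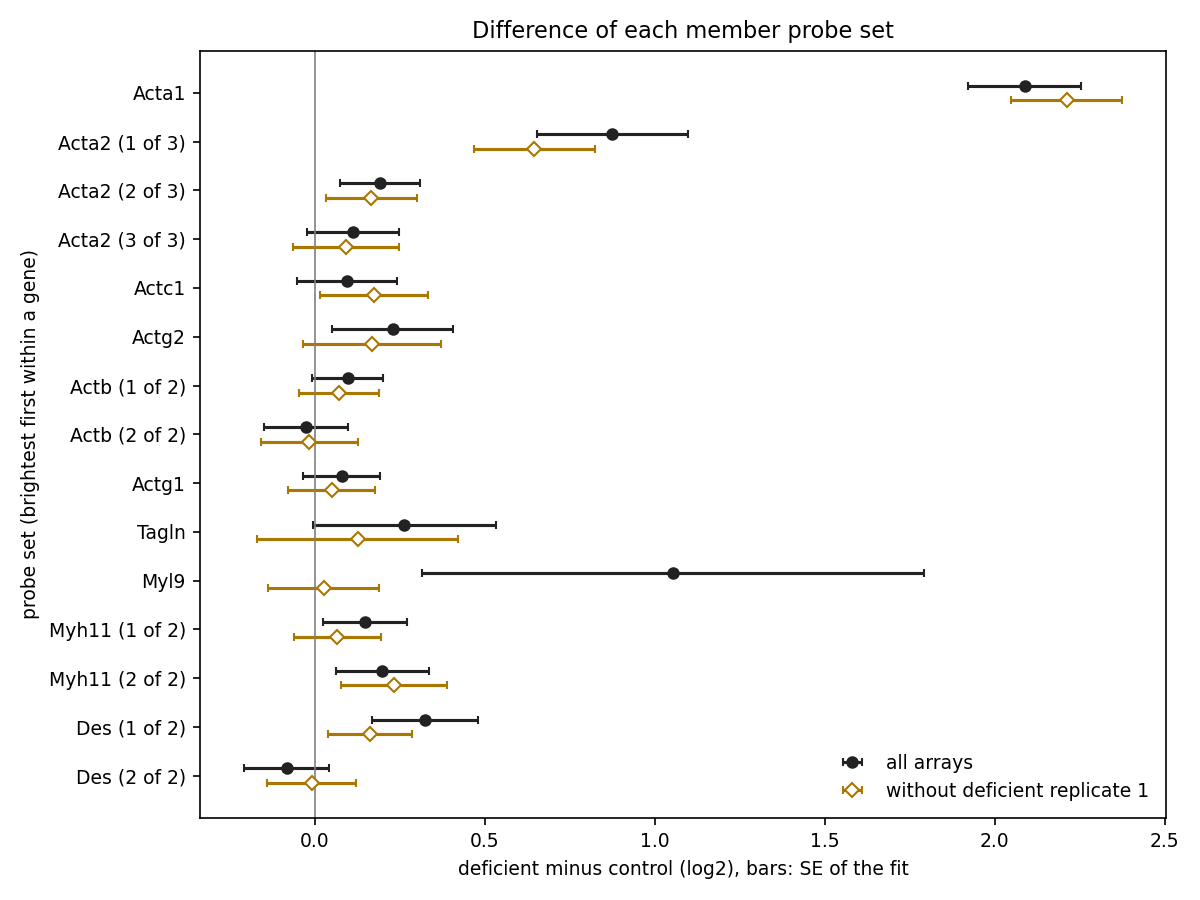
Deficient minus control difference on the log2 scale (x axis, bars ± 1 SE of the fit) for each of the 15 member probe sets (y axis, brightest first within a gene), with all 6 arrays (filled) and without deficient replicate 1 (open). Acta1 lies at 2.09 and 2.21, Acta2 at 0.87 and 0.65, and Myl9 moves from 1.05 to 0.026.

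Among the 14 member probe sets other than Acta1, 0 passed in limma, and 1 (Acta2) had an unadjusted p under 0.05, against 14.1% of all probe sets. Of the 14, 12 had a positive difference and the median difference was 0.17. Over all probe sets 52.4% were positive and the median was 0.012. In 3 of the 14 (Acta2, Actb and Des) the deficient arrays all lay above the controls, against 10.1% of all probe sets, and in 0 all lay below, against 9.75% of all probe sets. Without deficient replicate 1 the median of the 14 was 0.11, against 0.0048 over all probe sets. In bulk samples, a change in the number of cells of a type and a change in RNA per cell cannot be told apart.

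Of 24 measured smooth muscle genes outside the members, 0 passed in limma and 3 had an unadjusted p under 0.05, with a median difference of 0.13. For this and the following lists each gene is given by its brightest probe set. Over the 18193 genes with a probe set of their own that median was 0.022, 0.44% were called and 16.5% had an unadjusted p under 0.05. The calponin Cnn1, smoothelin (Smtn) and leiomodin (Lmod1), 3 proteins of differentiated smooth muscle, stood at 0.092, −0.064 and 0.12. Tpm1, a tropomyosin that lines actin filaments in muscle and other cells, read 9.90 to 10.03 in the control animals, against 10.3 to 10.5 in the deficient ones. Its difference of 0.50 (SE 0.11) did not pass (limma adjusted p = 0.135), while its other probe sets ran from −0.21 to 0.77. The one at 0.77 was also bright, at 9.24 to 10.2, with groups that did not overlap (limma adjusted p = 0.070). The one at −0.21 was dim, at 2.29 to 2.64. The list mean was 5.005 to 5.07 in the controls and 5.55, 5.09 and 5.07 in the deficient animals. Deficient replicate 1 stood highest, led by the caldesmon gene Cald1 and the integrin Itga8. Cald1 read 8.54 in that array, 5.22 and 5.37 in the other deficient arrays and 4.90 to 5.07 in the controls. Its difference was 1.40, or 0.32 without deficient replicate 1, and its other probe sets ran from −0.084 to 1.42. Itga8 read 7.96 in deficient replicate 1 against 2.43 to 3.37 on the other arrays.

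The list means of markers of cells in and around vessels, where Acta2 is a known marker of pericytes, were also highest in deficient replicate 1. The 7 pericyte genes averaged 6.10 in deficient replicate 1 against 5.13 to 5.34 elsewhere, and the 15 fibroblast genes 5.89 against 4.73 to 5.35. Of both lists and of the 14 endothelial genes 0 passed in limma, and in each 1 gene had an unadjusted p under 0.05. The endothelial receptor Tek read 7.11 in that array and 2.52 to 3.26 in the others. Not every gene had this pattern. Lyve1, also of the endothelial list, read 6.07 in that array, 7.06 and 6.88 in the other deficient arrays and 5.50 to 6.24 in the controls. Its difference was 0.74, or 1.04 without deficient replicate 1, and 0.50 by its second probe set. Of the fibroblast genes, the receptor Pdgfra stood at 0.61 (SE 0.14, limma adjusted p = 0.127, and 0.63 without deficient replicate 1) with groups that did not overlap, and 0.78 and 0.15 by its other probe sets. Pdgfrb stood at 1.44 and Postn at 0.58, both highest in deficient replicate 1. The collagens Col1a1 and Col3a1 stood at −0.15 and −0.24, and at 0.12 and −0.12 by their second probe sets. The highest Col3a1 array was control replicate 3, at 6.23. Thy1 stood at −0.45, with 5.64 in deficient replicate 1 against 5.84 to 6.74 in the controls. The parts of these cells in the values of Myl9, Acta2 and Des in deficient replicate 1 were not tested. Acta1 was lowest of its group in that array, and its difference without it was 2.21. The part of these cells in the Acta1 values was not tested either.

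Genes of striated muscle, where Acta1 is the main actin, were measured by 35 genes, of which 0 passed in limma and 4 had an unadjusted p under 0.05 (median 0.055). The list mean was 4.02 to 4.16 in the controls and 4.15 to 4.24 in the deficient animals. The muscle creatine kinase Ckm stood at −0.066 with overlapping groups, and at 0.27 by its second probe set, whose groups did not overlap. The fast muscle light chains Myl1 and Mylpf stood at 0.11 and 0.37, with overlapping groups. The groups did not overlap upwards in 3 genes, the atrial light chain Myl7, the slow troponin Tnni1 and titin (Ttn), against 11.5% of all genes. Myl7 read 8.32, 8.28 and 8.45 in the control animals, against 8.93, 9.39 and 10.3 in the deficient ones, a difference of 1.20 (SE 0.31, limma adjusted p = 0.170). Ttn stood at 0.49, and its other probe sets ran from −0.40 to 0.080.

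**Figure D4:**
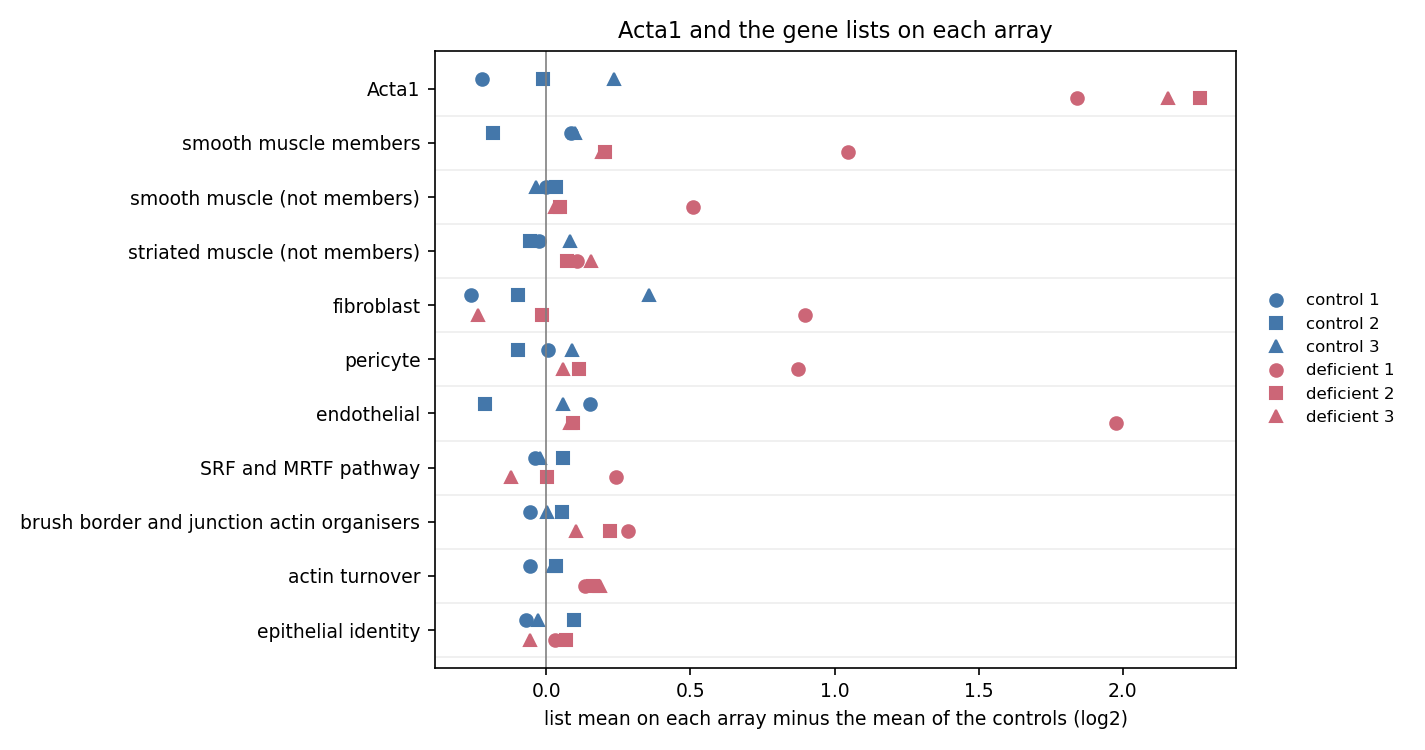
Mean log2 RMA expression of each gene list on each array, less the mean of the controls (x axis), with Acta1 in the top row; symbols stand for replicates, controls in blue and deficient arrays in red. All 3 deficient arrays are apart for Acta1, while for smooth muscle, pericyte and endothelial genes deficient replicate 1 lies farthest to the right.

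The regulators and other targets of the SRF and MRTF pathway were measured by 31 genes, of which 0 passed in limma and 6 had an unadjusted p under 0.05 (median 0.094). Srf itself read 7.38 to 7.77 in the controls and 7.60 to 7.63 in the deficient animals, a difference of 0.094 (SE 0.13), while its second probe set stood at 0.45 (SE 0.11, limma adjusted p = 0.168) with groups that did not overlap. Its partners Mrtfa and Mrtfb stood at −0.053 and −0.26, with overlapping groups. The difference was positive in 18 of the 31, and 53.9% of all genes had a positive one. In 7 of the 31 the deficient arrays all lay above the controls, against 11.5% of all genes, and in 3 all lay below, against 11.2%. The highest difference, 0.98 (SE 1.49) for the matrix protein gene Ccn2, was carried by deficient replicate 1, at 8.85. The small GTPase Rhob stood at 0.57 (SE 0.17, limma adjusted p = 0.204), Fhl1, a LIM protein of muscle, at −1.59 (SE 0.46, adjusted p = 0.204, and 0.18 by its second probe set), and the actin crosslinker Actn1 at −0.48.

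Epithelial actin organisers differed by small amounts. Of 21 genes of the brush border and junctions 0 passed in limma and 5 had an unadjusted p under 0.05, with a median of 0.20. In 7 the deficient arrays all lay above the controls, against 11.5% of all genes. The same held for 5 of the 14 epithelial identity genes, Vil1 among them. Villin (Vil1), which bundles and severs microvillar actin, read 12.58, 12.58 and 12.59 in the control animals, against 12.84, 12.87 and 12.89 in the deficient ones. The microvillar bundler Pls1 stood at 0.28, and Baiap2l1, a membrane-bending actin regulator, at 0.67 (0.36 by its second probe set). Of 28 actin turnover genes 0 passed in limma and 5 had an unadjusted p under 0.05, with a median of 0.17. The difference was positive in 24, and 53.9% of all genes had a positive one. In 11 of the 28 the deficient arrays all lay above the controls, against 11.5% of all genes, and in 1 all lay below, against 11.2%. Among them were gelsolin (Gsn), a filament-severing protein, at 0.43, the cyclase-associated protein Cap1 at 0.46 and muscle cofilin (Cfl2) at 0.53, with 0.23 and 0.025 by its other probe sets. Of the 9 measured genes of enteric neurons, glia and interstitial cells 0 passed in limma and 2 had an unadjusted p under 0.05 (median 0.13). The difference was positive in 5 of the 9. Ano1, also a marker of interstitial cells, stood at 0.68 (0.31 without deficient replicate 1) and Uchl1 at 0.30. In both, all deficient arrays lay above the controls. Gfap stood at 0.30 with overlapping groups. The receptor Kit, which marks interstitial cells and is also made by mast and some epithelial cells, stood at −0.86 (SE 0.14, limma adjusted p = 0.061, and −0.80 without deficient replicate 1), with all deficient arrays below the controls, and at −0.081 by its second probe set.

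The genes whose pattern over the 6 arrays was most like that of Acta1 were sought among 2507 probe sets with a mean at or above the median of all and a range of at least 1 log2 unit. The closest by Pearson's r were Edn3 (endothelin 3, 0.995), Il1rn (the interleukin-1 receptor antagonist, 0.993), Anxa5 (annexin A5, 0.993), Rtp4 (an interferon-induced gene, 0.992) and Rab31 (a small GTPase of vesicle traffic, 0.992). Of these 5, all but Edn3 were called higher, and the gap between the groups, which they share with Acta1, sets most of such an r. Edn3 read 7.48, 7.66 and 7.78 in the control animals, against 8.29, 8.49 and 8.46 in the deficient ones. Its order of arrays within each group was that of Acta1. Il1rn, Anxa5 and Rtp4 had this order too, and Rab31 had it in the controls only. With each group's mean taken off, r with Acta1 ran from 0.785 (Rab31) to 0.977 (Edn3). For the smooth muscle members (Acta2, Actg2, Tagln, Myl9, Myh11 and Des, averaged) the closest were Ano1, a chloride channel of interstitial cells and other types (0.991), Gpihbp1, which holds lipoprotein lipase on capillaries (0.987), Ccdc80 (0.979), Rbms3 (0.974) and Ramp2 (0.974). In all 5 of these, deficient replicate 1 was the highest array, and without it r was 0.738 to 0.985. The averaged members were also highest there, at 5.31 against 4.08 to 4.47 elsewhere, so a choice by r favours such genes. The 2 patterns had no gene in common among these 10, and each r is a description of 6 arrays.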

How the data were processed

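RNA of intestinal epithelial cells was measured on a 3′ Affymetrix array, 1 array for each of 6 biological replicates, grouped and numbered by the sample titles. The values that the authors deposited are on a log2 scale and were made with RMA, per the submitters' processing notes. RMA (robust multi-array average) corrects the background, brings arrays to 1 distribution and summarises each probe set; no version of it is stated. Values ran from 1.13 to 14.1, with array medians of 4.85 to 4.91. With 3 arrays a group, their number limits the precision.

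The 64 control probe sets were left out of the fit. Deficient minus control was fitted over the other 45037 probe sets with limma 3.58.1 in R 4.3.3 (lmFit, then eBayes; two-sided; no term besides group), with Benjamini-Hochberg adjustment and a threshold of 0.05. The script was first tested on simulated data. In the platform annotation, of some age, 34945 probe sets name 1 gene, 932 name several (0 of these a member) and 9160 are unnamed.

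The members and gene lists were chosen with earlier results of these data known. For other lists, the rule names up to 4 genes with the smallest p and fixed defining genes; Cald1, Itga8, Ccn2, Gkn2 and probe sets other than the brightest were named after their values were seen. Alternatives were the replicate number as a block, 1 value per gene, filters, other variance settings, scalings, leaving out arrays and the Gapdh difference. Tables and plots were made with Python 3.11.15, pandas 2.3.3, numpy 2.4.6 and matplotlib 3.10.9. The titles call each array a biological replicate, read here as a separate animal, and p-values rest on the spread between them.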

Additional observations from a re-analysis of the deposited data

How the results depend on the processing

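The Acta1 difference ran from 1.98 to 2.21 when single arrays were left out, each time with 1 member probe set called. Acta1 was chosen from this comparison on the same arrays, so these calls say nothing of its stability. With the Gapdh difference as a covariate it was 1.91 and without the controls of highest Gapdh difference (replicates 1 and 2) 1.85, with 0 members called in both; those settings were known from earlier work on these data. The count over all probe sets was 143. It was 26 with the covariate, 1 without both controls, 277 without dim probe sets, 242 with a variance trend and robust prior, 1180 with array weights, and 18 (without control replicate 1) to 190 (without deficient replicate 1) when single arrays were left out; the cause was not tested. With the replicate number as a block 112 passed. The labels do not say that same-numbered animals are related, so the numbers were not taken as pairs. Same-numbered arrays deviated together with r of 0.0744, 0.0841 and −0.0553. The other pairings of a control with a deficient array gave −0.108 to 0.053. Of the member probe sets not called, those of Tagln, Actc1, the dimmer Actb, the dimmest Acta2 and the dimmer Des took the other sign under at least 1 alternative. With the Gapdh covariate and then without both controls, Tagln stood at −0.25 and −0.28. In the same 2 settings the brightest Acta2 probe set fell to 0.66 and 0.59, and Actg2 rose to 0.46 and 0.55.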
